A study of Homo sapiens with 18 samples.

Results

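The definitive endoderm regulators described here were the transcription factor genes SOX17, FOXA1, FOXA2, FOXA3, HNF4A, HHEX and PRDM1 and the chemokine receptor gene CXCR4. They were chosen by name, which gave 8 of the 57133 genes in the count table, and their expression was followed with and without PCGF6 in human pluripotent stem cells (PSCs), as wild type (WT) and as knockout (PCGF6-KO). The cells were PGP1, an established human induced PSC line grown in mTeSR1 medium on Matrigel. PCGF6 encodes the subunit that sets apart PRC1.6, a variant Polycomb repressive complex. It was knocked out by CRISPR-Cas9 with paired guide RNAs against its first exon, and each PCGF6-KO group was 1 clone, with a deletion of a different length in the 2 clones on both alleles. RNA-seq was performed on 2 libraries of WT, 2 of clone 1 and 2 of clone 2, and all cells were kept in the same undifferentiated culture condition. The labels did not say whether the libraries of a group came from separate cultures, so p-values measured the spread between libraries, which may be technical. The test of PCGF6-KO against WT took the 4 libraries of the 2 clones as 1 group and treated each library as independent. Its spread therefore also held the difference between the clones.

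Definitive endoderm is the embryonic layer that gives rise to the gut, liver, pancreas and lungs, and it arises from the primitive streak under Nodal signaling. SOX17 is a SOX family factor required for its formation, and CXCR4, the receptor of the chemokine CXCL12, is the surface protein most used to sort it. FOXA1, FOXA2 and FOXA3 are forkhead factors that open chromatin at endodermal enhancers, HNF4A is a nuclear receptor of liver and gut, HHEX is a homeobox factor of anterior endoderm, and PRDM1 (BLIMP1) is a zinc finger repressor of early endoderm and germ cells. Several of these genes have other uses as well, since SOX17 and PRDM1 also specify primordial germ cells, and CXCR4, SOX17 and HHEX are expressed in endothelial and blood progenitors.

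The libraries held between 15877396 and 18918609 counts. For PCGF6 itself, WT libraries held 268 and 300 counts, clone 1 libraries 99 and 103, and clone 2 libraries 187 and 159, counted over the whole gene and not over the deleted stretch alone. It was lower in the PCGF6-KO libraries (log2 fold change −1.15, adjusted p = 0.00914, edgeR's quasi-likelihood test). Without WT replicate 1 or WT replicate 2, the adjusted p of that test was 0.0528 or 0.0782. In what follows, CPM is the count scaled to a common library size by edgeR's TMM factors, and TPM is the level per gene length. Calls required an adjusted p below 0.05 (Benjamini-Hochberg) together with a log2 fold change beyond 0.6 in either direction. A filter on low counts kept 17672 genes and 7 of the 8 regulators. FOXA3 and CXCR4 passed it in every library and HHEX in 1 WT and 3 PCGF6-KO libraries. SOX17, FOXA2 and PRDM1 passed it through the 4 PCGF6-KO libraries alone and HNF4A through 2 of them, so these genes entered the test only by being higher there. FOXA1 did not pass.

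Promoter sequences from RefSeq (GRCh38.p14) were matched by symbol to 6 of the 8 regulators, each from 250 bases before to 50 bases after an annotated start. The sequences of CXCR4 and PRDM1 are shown because these genes rose together, that of FOXA3 because it alone fell, and that of FOXA1 because it alone held a searched motif. In CXCR4, PRDM1 and FOXA3, capitals mark CG dinucleotides, and in FOXA1 they mark the motif.
CXCR4, chr2:136118100-136118399, reverse strand: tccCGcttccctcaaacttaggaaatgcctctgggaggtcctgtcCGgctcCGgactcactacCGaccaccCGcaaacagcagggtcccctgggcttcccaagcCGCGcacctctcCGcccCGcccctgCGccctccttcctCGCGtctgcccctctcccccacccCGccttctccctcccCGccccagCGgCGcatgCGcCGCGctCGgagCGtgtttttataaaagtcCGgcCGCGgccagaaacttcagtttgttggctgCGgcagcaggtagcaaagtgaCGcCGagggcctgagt
PRDM1, chr6:106086086-106086385, forward strand: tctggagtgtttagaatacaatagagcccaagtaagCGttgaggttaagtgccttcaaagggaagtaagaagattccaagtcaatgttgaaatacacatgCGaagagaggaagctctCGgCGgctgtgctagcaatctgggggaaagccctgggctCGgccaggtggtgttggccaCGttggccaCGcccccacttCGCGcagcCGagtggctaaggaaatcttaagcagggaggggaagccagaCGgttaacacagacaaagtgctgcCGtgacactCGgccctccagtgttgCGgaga
FOXA3, chr19:45864076-45864375, forward strand: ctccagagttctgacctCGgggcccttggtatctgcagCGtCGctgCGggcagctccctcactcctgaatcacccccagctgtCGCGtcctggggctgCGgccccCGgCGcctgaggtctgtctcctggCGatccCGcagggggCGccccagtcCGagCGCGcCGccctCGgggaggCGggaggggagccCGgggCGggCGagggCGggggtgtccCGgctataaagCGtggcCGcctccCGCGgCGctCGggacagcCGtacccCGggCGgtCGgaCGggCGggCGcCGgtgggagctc
FOXA1, chr14:37595200-37595499, reverse strand: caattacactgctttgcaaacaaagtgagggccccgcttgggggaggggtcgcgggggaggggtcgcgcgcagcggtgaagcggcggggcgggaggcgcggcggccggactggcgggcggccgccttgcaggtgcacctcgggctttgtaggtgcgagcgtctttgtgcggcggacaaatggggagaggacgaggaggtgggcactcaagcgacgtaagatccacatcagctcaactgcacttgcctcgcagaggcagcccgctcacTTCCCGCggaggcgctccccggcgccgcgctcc

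The promoters differed in how many CG dinucleotides they carried. The FOXA3 sequence held 37 and the FOXA1 sequence 34, against a median of 14 over all 35116 promoter sequences. The CXCR4 sequence shown held 27 and those at its other starts 14 and 9, and the PRDM1 sequence shown held 14 and the other 8. HHEX, which was not called in any comparison, had 44, and 96.5% of all promoters held that many or fewer. The 2 sequences of HNF4A had 11 and 9. Both strands were searched for CACGTG, the E-box bound by MAX, and for GCGGGAA, the motif of E2F6, since MAX and E2F6 are subunits of PRC1.6. CACGTG was found in none of the 10 sequences of these genes and in 7.26% of all promoters. GCGGGAA was found once, as TTCCCGC on the other strand of FOXA1 from base 17 after the start, and in 6.55% of all promoters. A match of letters is a description of the sequence and not a binding site, and these windows leave out enhancers.

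SOX17 (chr8:54457935-54460892, forward strand) was not detected in WT and was present in every PCGF6-KO library. The WT libraries held 0 and 0 counts, those of clone 1 held 47 and 33, and those of clone 2 held 46 and 45. The WT and PCGF6-KO libraries did not overlap. The raw counts of the 2 clones did, but on the CPM scale both clone 2 libraries (2.537 and 2.805) were above those of clone 1 (2.458 and 1.815). Scaled for library size, clone 1 had a level of 2.14 ± 0.455 CPM and clone 2 of 2.67 ± 0.189 CPM (SD, n = 2 each). Set against a floor of 3 counts per WT library, SOX17 was at least 13.2-fold higher in PCGF6-KO (adjusted p = 8.6e-05, edgeR's quasi-likelihood test), at least 11.7-fold higher in clone 1 (adjusted p = 3.1e-08) and at least 14.7-fold higher in clone 2 (adjusted p = 5.4e-09). Of the 17672 genes that passed the filter, 157 had a count of 0 in both WT libraries. Of these, 148 were called higher in PCGF6-KO, where 14.9% of all tested genes were. A gene with 0 counts in WT can pass only through PCGF6-KO libraries, so that this count was largely set by the filter. Between the clones, SOX17 differed by a log2 fold change of 0.31 (95% interval −0.27 to 0.90, adjusted p = 0.492), which was not called. In bulk RNA, more cells with a transcript and more transcript per cell cannot be told apart, for SOX17 as for the genes that follow.

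CXCR4 (chr2:136114349-136119177, reverse strand) was expressed at a low level in WT and rose in both clones. WT had 21 and 20 counts, clone 1 had 191 and 201, and clone 2 had 313 and 286. All 3 groups were separate, with clone 2 highest. The mean was 1.24 ± 0.0645 CPM in WT, 10.5 ± 0.755 CPM in clone 1 and 17.5 ± 0.398 CPM in clone 2 (SD, n = 2 each). Over both clones the log2 fold change was 3.49 (SE 0.337, 95% interval 2.72 to 4.25, adjusted p = 6.5e-05, edgeR's quasi-likelihood test). By clone, it was 3.07 (adjusted p = 7.6e-13) in clone 1 and 3.81 (adjusted p = 1.7e-15) in clone 2. The direct comparison of clone 2 with clone 1 gave 0.74 (95% interval 0.48 to 0.99, adjusted p = 9.1e-05).

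PRDM1 (chr6:105993463-106109939, forward strand) had the largest fold change among the regulators with counts in WT. Counts of 6 and 4 in WT stood against 160 and 163 in clone 1 and 255 and 238 in clone 2. As for CXCR4, the 3 groups did not overlap and clone 2 was highest. The mean rose from 0.304 ± 0.0911 CPM in WT to 8.67 ± 0.423 CPM in clone 1 and 14.5 ± 0.544 CPM in clone 2 (SD, n = 2 each). This gave a log2 fold change of 5.22 (SE 0.430, 95% interval 4.24 to 6.19, adjusted p = 2.4e-05, edgeR's quasi-likelihood test), with 4.80 (adjusted p = 1.0e-13) in clone 1 and 5.54 (adjusted p = 7.1e-16) in clone 2. Clone 2 exceeded clone 1 by 0.74 (95% interval 0.45 to 1.02, adjusted p = 0.000279), the same size of difference as for CXCR4. PRDM1 overlaps ATG5, an autophagy gene on the other strand with 739 to 918 counts per library. The strand setting of the counting is not given in the sources used here, so that reads of the shared stretch cannot be told apart, and ATG5 itself did not pass the test (log2 fold change 0.02, adjusted p = 0.897).

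**Figure D1:**
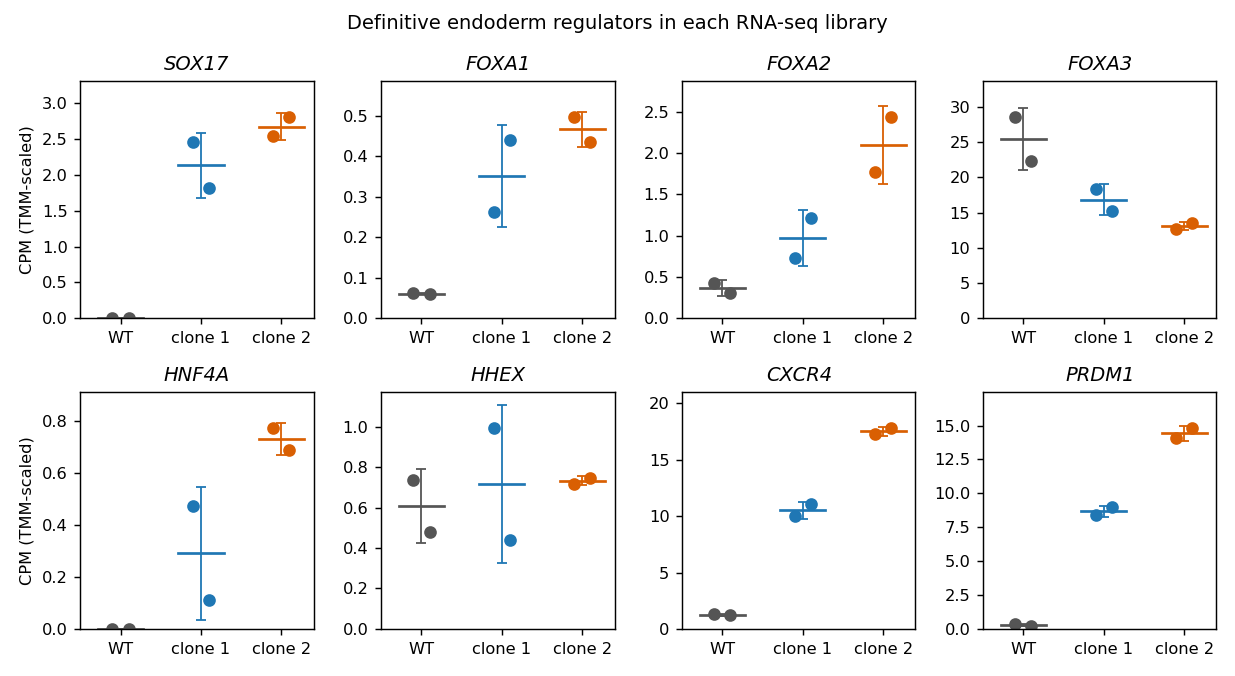
Expression of the 8 regulators in each RNA-seq library, in CPM (TMM-scaled, linear axes from 0, 1 panel per gene, each with its own scale). Points are libraries, bars are means and error bars are SD (n = 2 per group). Within their panels, SOX17, CXCR4 and PRDM1 lie near 0 in WT and higher in both clones, FOXA3 is highest in WT, and the HHEX groups overlap.

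Of the 3 FOXA genes, FOXA3 was called lower in PCGF6-KO, FOXA2 was called higher and FOXA1 was too low to be tested. FOXA3 (chr19:45863989-45873797, forward strand) was the one regulator with a high level in WT, and it fell. WT libraries contained 465 and 372 counts, clone 1 libraries 352 and 278, and clone 2 libraries 231 and 217. On the CPM scale the groups did not overlap and descended from 25.4 ± 4.43 in WT to 16.9 ± 2.20 in clone 1 and 13.1 ± 0.555 in clone 2 (SD, n = 2 each). The log2 fold change was −0.76 (SE 0.161, 95% interval −1.13 to −0.39, adjusted p = 0.00579, edgeR's quasi-likelihood test) in PCGF6-KO. It was −0.95 (95% interval −1.21 to −0.69, adjusted p = 4.4e-07) in clone 2. In clone 1 it was −0.59 (95% interval −0.84 to −0.34, adjusted p = 0.000225), which is short of the fold threshold. The WT libraries were far apart for this gene, and without WT replicate 1 the value in PCGF6-KO was −0.57 (adjusted p = 0.0921) and was not called. In clone 1, the value was −0.75 without WT replicate 2 and −0.73 without clone 1 replicate 1, and it was called in both cases.

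FOXA2 (chr20:22580998-22585455, reverse strand) was scarce in WT, with 7 and 5 counts. Clone 1 had 14 and 22 counts and clone 2 had 32 and 39. The groups did not overlap and rose in the order WT, clone 1, clone 2, from 0.365 ± 0.0921 CPM to 0.971 ± 0.338 CPM and 2.10 ± 0.471 CPM (SD, n = 2 each). FOXA2 was called in PCGF6-KO with a log2 fold change of 2.04 (SE 0.571, 95% interval 0.74 to 3.34, adjusted p = 0.0211, edgeR's quasi-likelihood test), in clone 1 with 1.39 (adjusted p = 0.0266) and in clone 2 with 2.50 (adjusted p = 4.1e-05). The call in PCGF6-KO was lost without WT replicate 1 (adjusted p = 0.0921) or WT replicate 2 (adjusted p = 0.147), with fold changes of 2.32 and 1.81. The call in clone 1 was lost without WT replicate 1 (adjusted p = 0.0511), WT replicate 2 (adjusted p = 0.149) or clone 1 replicate 2 (adjusted p = 0.212), and with DESeq2 (adjusted p = 0.143). Clone 2 exceeded clone 1 by 1.10 (95% interval 0.36 to 1.85, adjusted p = 0.0315, edgeR's quasi-likelihood test). That call was lost without clone 1 replicate 1 (adjusted p = 0.23) or clone 2 replicate 2 (adjusted p = 0.228), and with DESeq2 (adjusted p = 0.265).

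FOXA1 (chr14:37589552-37596059, reverse strand) was counted once in each WT library, 5 and 8 times in clone 1, and 9 and 7 times in clone 2. All PCGF6-KO libraries stood above both WT libraries. From these counts the ratio of PCGF6-KO to WT was 6.69, with a 95% exact interval of 1.69 to 57.8 that covers counting error only. With no filter on low counts, edgeR's quasi-likelihood test gave an adjusted p of 0.0328 for PCGF6-KO, 0.0732 for clone 1 and 0.0168 for clone 2, and DESeq2 gave 0.121 for PCGF6-KO. FOXA1 overlaps TTC6 on the other strand, which had 2 to 12 counts per library.

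Since the FOXA proteins bind the same DNA motif, their transcripts were also summed per gene length. The summed FOXA level in TPM was 58.7 and 45.9 for WT, 38.0 and 33.2 for clone 1, and 27.1 and 29.8 for clone 2, and the groups did not overlap. FOXA3 made up 98.6 and 98.7% of this sum for WT, 96.0 and 92.4% for clone 1, and 87.9 and 85.5% for clone 2. The share of FOXA2 was 1.25 and 1.12% for WT, 3.22 and 6.16% for clone 1, and 10.2 and 12.9% for clone 2. FOXA3 thus remained the main FOXA transcript in every library, while the share of FOXA2 grew as its own level rose and that of FOXA3 fell.

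**Figure D2:**
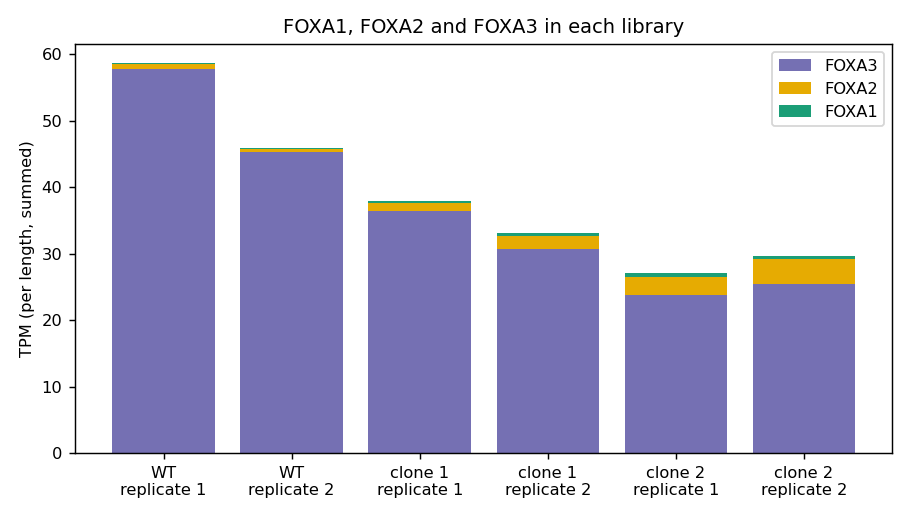
Transcripts of FOXA1, FOXA2 and FOXA3 in each of the 6 libraries, in TPM, stacked from 0. Each bar is 1 library, so there is no error bar. The total is highest in the WT libraries (58.7 and 45.9 TPM), FOXA3 fills most of every bar, and the FOXA2 segment is largest in clone 2.

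HNF4A (chr20:44355699-44432845, forward strand) was at 0 counts in both WT libraries and low in PCGF6-KO, with 9 and 2 counts in clone 1 and 14 and 11 in clone 2. The libraries of clone 2 were above those of clone 1, and 1 library of clone 1 was under the floor of 3 counts. The level was 0.290 ± 0.255 CPM in clone 1 and 0.729 ± 0.0612 CPM in clone 2 (SD, n = 2 each). HNF4A was called as at least 2.8-fold higher in PCGF6-KO (adjusted p = 0.0208, edgeR's quasi-likelihood test), at least 1.6-fold higher in clone 1 (adjusted p = 0.00898) and at least 4-fold higher in clone 2 (adjusted p = 0.000173). The adjusted p in PCGF6-KO was 0.0941 without WT replicate 1 and 0.0969 without WT replicate 2, and that in clone 1 was 0.135 without clone 1 replicate 1. Clone 2 differed from clone 1 by a log2 fold change of 1.29 (95% interval 0.05 to 2.53, adjusted p = 0.144). Without clone 1 replicate 1 this became 2.65 (adjusted p = 0.0432) and was called. The antisense gene HNF4A-AS1 had 1 count in 1 WT library and none in the others.

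HHEX (chr10:92689955-92695647, forward strand) was found at a low level in every group. Counts of 12 and 8 (WT), 19 and 8 (clone 1) and 13 and 12 (clone 2) overlapped throughout. The means were 0.608 ± 0.182, 0.717 ± 0.392 and 0.732 ± 0.0219 CPM (SD, n = 2 each). The log2 fold change was 0.26 in PCGF6-KO (95% interval −0.73 to 1.24, adjusted p = 0.681, edgeR's quasi-likelihood test), 0.25 in clone 1 (95% interval −0.78 to 1.28) and 0.27 in clone 2 (95% interval −0.78 to 1.31). At this depth, a change of HHEX within these intervals in either direction was not detectable. Its sign turned when WT replicate 2 was left out (−0.02 in PCGF6-KO).

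Counted over the 7 tested regulators, 5 were called higher in PCGF6-KO against WT (SOX17, CXCR4, PRDM1, FOXA2 and HNF4A), where 14.9% of all tested genes were called higher. FOXA3 was called lower, where 8.70% of all tested genes were. In clone 1 the same 5 were called higher and none lower, with 16.0% and 8.80% of all tested genes called. In clone 2 these 5 were called higher and FOXA3 lower, with 16.9% and 12.5% called. The 3 comparisons share the WT libraries, and 4 of the 5 regulators called higher had entered the test through PCGF6-KO libraries, so that these counts are a description. Between the clones, CXCR4, PRDM1 and FOXA2 were called higher in clone 2 and none lower, where 3.73% and 4.14% of all tested genes were called. PCGF6 was also higher in clone 2 than in clone 1 (log2 fold change 0.90, adjusted p = 5.4e-05), and whether it bears on these differences was not tested.

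**Figure D3:**
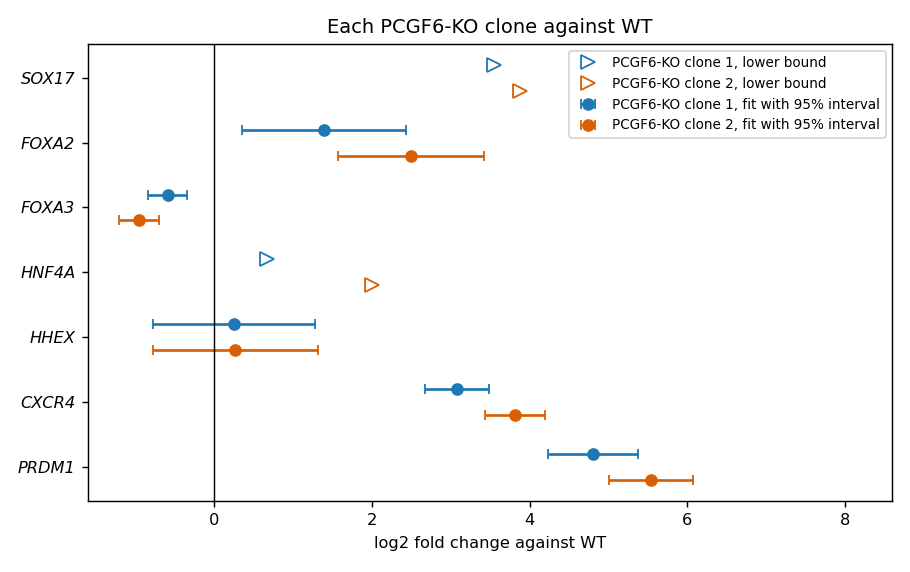
Log2 fold change of the 7 tested regulators in each PCGF6-KO clone against WT. Filled points are fits with 95% intervals (n = 2 libraries per group). Open triangles are lower bounds of the mean level against 3 counts per library where WT had 0 counts, without an interval. CXCR4, PRDM1 and FOXA2 lie to the right of 0 and farther in clone 2, FOXA3 lies to the left, and the HHEX intervals span 0.

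The order of the regulators by TPM, a level per gene length, changed with the genotype. In WT, FOXA3 (51.6 TPM) was far above CXCR4 (2.49), HHEX (1.07), FOXA2 (0.623), PRDM1 (0.212) and FOXA1 (0.0678), with SOX17 and HNF4A at 0. In clone 1 the order was FOXA3 (33.6 TPM), CXCR4 (20.7), PRDM1 (5.93), SOX17 (3.98), FOXA2 (1.63), HHEX (1.24), FOXA1 (0.386) and HNF4A (0.173). FOXA2 and HHEX, which are neighbors in that order, overlapped between the 2 libraries, and the other neighbors did not. In clone 2, CXCR4 (32.4 TPM) was ahead of FOXA3 (24.6), followed by PRDM1 (9.29), SOX17 (4.69), FOXA2 (3.32), HHEX (1.19), FOXA1 (0.481) and HNF4A (0.410), with no overlap between neighbors. SOX17 stood at or above 55.2% of the detected genes in clone 1 and 57.5% in clone 2, whereas CXCR4 moved from 48.0% in WT to 75.2% and 81.5%. CXCR4 and PRDM1 were the most abundant of the regulators that rose, and HNF4A was the lowest in both clones.

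Over the 6 libraries, CXCR4 and PRDM1 followed each other with a Pearson correlation of log2(CPM + 0.5) of 0.999, and SOX17 correlated with them at 0.988 and 0.992. Each value rests on 6 libraries that share the step from WT to PCGF6-KO. Of the other expressed genes with a symbol (12905 or 12906 for each regulator), 374 correlated with SOX17 at over 0.99, 496 with CXCR4 and 547 with PRDM1. The 3 genes most like SOX17 were APP, EVX1-AS and FGF17 (0.9997 to 0.9993), those most like CXCR4 were GAU1, FIBIN and SPATA16, and those most like PRDM1 were SAMD4A, SNAI2 and CDH13. FOXA2 was matched at over 0.99 by 13 genes, led by KCTD7, MFSD14B and UGP2, and HNF4A by 6, led by ZNF384, POU6F1 and PDCD6IP. FOXA3 was matched by 4, led by RUSC1, PSD and ADAM15. No gene reached 0.99 with HHEX, for which CWC15, LPAR2 and MRPL41 came nearest (0.9798 to 0.9719).

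The genes next to the regulators on the chromosome were also read from the table, using GENCODE positions on GRCh38. None of the 7 tested neighbors (TTC6, MIPOL1, SYMPK, IRF2BP1, EXOC6, MCM6 and ATG5) was called in PCGF6-KO against WT. Over all tested genes, 14.9% were called higher and 8.70% lower, so that 7 genes are too few to set the neighbors apart from other genes. SYMPK, which lies 795 bases from FOXA3, had a log2 fold change of −0.25, and MCM6, the nearest gene on the lower side of CXCR4, had −0.12. LINC00261 and LNCNEF are noncoding RNA genes 2356 and 2067 bases from FOXA2, and LINC00261 is known to be expressed with FOXA2 in endoderm. Both had 0 counts in all 6 libraries.

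Upstream of these regulators, the Nodal pathway and other inducers of endoderm were read as a list of 20 genes. All 20 were tested, with 11 called higher in PCGF6-KO and 1 lower, where 14.9% and 8.70% of all tested genes were called. The median log2 fold change was 1.68 against 0.0037 over all tested genes. EOMES, GSC, GATA4 and GATA6 had 0 to 5 counts per WT library and passed the filter on low counts through PCGF6-KO libraries, so that the count is a description. EOMES, the T-box factor that switches on endoderm genes in the primitive streak, was counted 3 and 5 times in WT libraries, 2630 and 2528 times for clone 1, and 1615 and 1647 times for clone 2. The clones differed in EOMES by −0.53 on the log2 scale (clone 2 against clone 1, adjusted p = 5.0e-06, edgeR's quasi-likelihood test), which is short of the fold threshold and was not called. MIXL1, a homeobox factor of the streak, rose from 70 and 46 WT counts to between 5494 and 5918 (log2 fold change 6.48, adjusted p = 5.8e-08, edgeR's quasi-likelihood test). The ligand NODAL rose by 3.76 and its secreted inhibitor CER1 by 3.40 on the log2 scale.

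GATA4 and GATA6, zinc finger factors of endoderm and heart, were nearly absent in WT and higher in clone 2 than in clone 1. For GATA4, WT held 5 and 0 counts, clone 1 held 561 and 555, and clone 2 held 1146 and 955. For GATA6 the same libraries held 2 and 0, 168 and 142, and 434 and 292. Clone 2 exceeded clone 1 by 1.04 for GATA4 (adjusted p = 2.7e-08) and 1.35 for GATA6 (adjusted p = 1.8e-07, edgeR's quasi-likelihood test). OTX2, a homeobox factor of anterior epiblast and anterior endoderm, was the gene of the list called lower (log2 fold change −1.26). The receptors ACVR1B, ACVR2A and ACVR2B and the transducers SMAD2 and SMAD4 were not called, and SMAD3 rose by 1.41 on the log2 scale. Levels per gene length placed SOX17 far below its activator EOMES, with an EOMES to SOX17 ratio in TPM of 35.8 and 49.1 in clone 1 and 22.5 and 23.4 in clone 2.

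CXCR4 was set beside its ligands and related receptors. CXCL12, its ligand, kept 1056 to 1628 counts per library and did not pass the test (log2 fold change 0.09, adjusted p = 0.534). The ratio of CXCR4 to CXCL12 in TPM rose from 0.0488 and 0.0457 (WT) to 0.321 and 0.369 (clone 1) and 0.644 and 0.740 (clone 2). ACKR3, the second receptor of CXCL12, rose by 2.49 on the log2 scale (adjusted p = 0.00437, and 0.0569 without WT replicate 1, edgeR's quasi-likelihood test). CD74, the receptor of the cytokine MIF, fell from 1381 and 1488 WT counts to between 246 and 339 (log2 fold change −2.41, adjusted p = 1.6e-07), and MIF had 5 to 15 counts.

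Genes of the later gut tube, liver and pancreas, among which FOXA and HNF4A targets are found, were mostly at low counts. Of the 20 listed, 11 were tested, 5 were called higher and 1 lower (14.9% and 8.70% over all tested genes), with a median log2 fold change of 1.25. CDX2, SERPINA1 and APOA1 had 0 to 3 counts per WT library and passed the filter through PCGF6-KO libraries. The summed level of the list was 19.3 to 20.9 TPM in WT, 79.6 to 80.4 TPM in clone 1 and 107 to 115 TPM in clone 2. CDX2 made up 42.0 and 38.8 TPM of this in clone 1 and 81.2 and 72.9 TPM in clone 2. CDX2, a homeobox factor of hindgut that is also expressed in trophoblast and posterior mesoderm, had 1 count in each WT library, with 762 and 660 for clone 1, and 1481 and 1169 for clone 2. SERPINA1, a secreted protein of liver, was counted 1 and 0 times in WT libraries, 26 and 17 times for clone 1, and 5 and 6 times for clone 2, and its call was lost without WT replicate 1 (adjusted p = 0.0756) or WT replicate 2 (adjusted p = 0.143). APOA1, an apolipoprotein, had 1 and 3 counts in WT and 18 to 22 in PCGF6-KO. APOB, the apolipoprotein of low density lipoprotein, was the gene called lower, with 68 and 85 counts in WT and 27 to 57 in the clones (log2 fold change −0.93, adjusted p = 0.0242, edgeR's quasi-likelihood test). That call was lost without WT replicate 1 (adjusted p = 0.074), WT replicate 2 (adjusted p = 0.188) or clone 1 replicate 2 (adjusted p = 0.0511). ALB (albumin) had at most 7 counts in any library, TTR at most 2 and PDX1, a pancreas factor, at most 1.

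The 8 regulators are shared with other cell types, and the markers of these types were measured beside them. For primordial germ cells, 6 of 9 markers were tested, and TFAP2C and SOX15 were called higher while DPPA3, DAZL and KIT were called lower (14.9% and 8.70% over all tested genes, as for the lists that follow). TFAP2C, a specifier of human germ cells that other early lineages also use, had 136 and 134 counts in WT and 1526 to 1655 in the clones, so that it rose by 3.45 on the log2 scale, and SOX15 rose by 3.28. DPPA3 had 28 and 25 counts in WT and 6 to 9 in PCGF6-KO, so that it passed the filter on low counts through WT libraries. DND1 was at 0 in every library, and NANOS3 and DDX4 had no more than 4 counts. The summed level of the 9 markers was 268 to 277 TPM in WT, 512 to 515 TPM in clone 1 and 547 TPM in both libraries of clone 2. For endothelium and blood, 10 of 12 markers were tested. KDR, SOX18 and RUNX1 were called higher and CDH5, TIE1 and ERG lower, and EMCN had at most 2 counts over a clone. SOX18 had 2 and 1 counts in the WT libraries and passed the filter through PCGF6-KO libraries. The calls of DPPA3 and SOX18 are therefore a description. The call of CDH5 was lost without WT replicate 1 (adjusted p = 0.0595, edgeR's quasi-likelihood test) and that of SOX18 without WT replicate 2 (adjusted p = 0.0731). KDR is also expressed in PSCs and early mesoderm, and it gave most of the summed level of 155 to 159 TPM in WT, 369 to 390 TPM in clone 1 and 348 to 371 TPM in clone 2.

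Extraembryonic endoderm expresses SOX17, FOXA2, GATA4 and GATA6 as well. Of its 11 listed markers, 10 were tested and 7 were called higher, most of them collagens and laminins such as COL4A1 (log2 fold change 2.18). The laminin LAMA1 went the other way, with −0.599 in PCGF6-KO (adjusted p = 0.000911, edgeR's quasi-likelihood test), just short of the fold threshold. In clone 2 it was called lower (−0.71). The summed level of the list was 862 to 897 TPM in WT, 1730 to 1750 TPM in clone 1 and 2020 to 2030 TPM in clone 2. SOX7, which separates extraembryonic from definitive endoderm, held 23 and 24 counts in WT libraries against 25 to 40 in PCGF6-KO and was not called (log2 fold change 0.36, adjusted p = 0.315). AMN had at most 11 counts.

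Of 8 markers of primitive streak and mesoderm, 6 were tested and these were called higher, where 14.9% of all tested genes were. MSGN1, HAND1, FOXF1 and TBX20 had 0 counts in WT and passed the filter through PCGF6-KO libraries, so that this count was largely set by the filter. The summed level of the list was 2.93 to 5.72 TPM in WT, 411 to 416 TPM in clone 1 and 751 to 820 TPM in clone 2. For TBXT (Brachyury), 0 and 12 WT counts stood against 3065 to 5515 in PCGF6-KO. HAND1, a factor of lateral and extraembryonic mesoderm, had 0 counts in WT and was at least 394-fold higher in PCGF6-KO. The summed level of the 6 pluripotency markers was lower in both clones, without overlap, at 5770 to 5990 TPM in WT, 5180 to 5270 TPM in clone 1 and 4640 to 4730 TPM in clone 2. Of these genes, SOX2 was called lower in clone 2 (log2 fold change −1.04) but not in clone 1 (−0.41). The clones differed in SOX2 by −0.63 (clone 2 against clone 1), which was called. Over both clones, SOX2 was called lower with a log2 fold change of −0.69. SOX2 was not called without WT replicate 1 (adjusted p = 0.101), WT replicate 2 (adjusted p = 0.109) or clone 2 replicate 1 (−0.58). The summed levels of the mesoderm, germ cell, endothelial and extraembryonic endoderm markers were all higher in both clones than in WT, as were SOX17, CXCR4 and PRDM1. A sum follows its most abundant genes. The median log2 fold change of the tested markers was −0.36 for germ cells and 0.016 for endothelium and blood. It was 1.11 for extraembryonic endoderm and 4.16 for mesoderm, with lower bounds where WT had 0 counts. The summed level of the pluripotency markers was lower. The part of these cell types in these results was not tested.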

How the data were processed

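RNA-seq libraries of WT PGP1 cells and of 2 PCGF6-KO clones were used, 2 per group. According to the submitters' processing notes, the authors trimmed reads with Trim Galore (0.6.2), aligned to GRCh38 with HISAT2 (2.1.0) and ran featureCounts on genes. They deposited raw counts for 57133 genes with gene lengths. Annotation release, strand setting and treatment of multi-mapped reads are not given in the sources used here. The table held 0 columns of other samples. The ChIP-seq samples were not analysed here.

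Genes were filtered with filterByExpr (minimum count 10, minimum total 15) on the 2 genotypes, which left 17672, and scaled by TMM. edgeR's quasi-likelihood test (4.0.16, limma 3.58.1, R 4.3.3) compared PCGF6-KO with WT, and a fit with 3 groups compared each clone with WT and the clones with each other. P-values were adjusted by Benjamini-Hochberg over all tested genes. The thresholds were 0.05 for the adjusted p and 0.6 for the size of the log2 fold change. Libraries held 15877396 to 18918609 counts, and the common biological coefficient of variation was 0.12 with 2 groups and 0.0524 with 3. Bounds against 0 counts divided the mean level of a group by 3 counts per WT library and left out the spread of that group. Intervals of count ratios were exact binomial at a confidence level of 0.95. TPM was computed from the counts and the deposited lengths. Correlations used log2(CPM + 0.5), among genes whose average log2 CPM was 1 or more. Positions were taken from GENCODE release 44. The steps were tested on simulated data.

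The regulators and marker lists were chosen with earlier results of these data known. The text names the regulators, PCGF6, pluripotency markers, neighboring and most correlated genes, and from each list at most the 4 called genes with the largest fold change and the most abundant ones. Other list genes (among them SMAD and ACVR genes, ALB, TTR, PDX1, APOB, SOX7, LAMA1, AMN, MIF and germ cell and endothelial markers) were named for their role after their values were seen. Alternatives tried were upper-quartile and RLE normalization, DESeq2 (1.42.0), 2 other filters, the p threshold alone, the replicate number as a block, other groupings, library totals and leaving out each library. Tables and plots were made with pandas 2.3.3, numpy 2.4.6, matplotlib 3.10.9 and scipy 1.17.1 under Python 3.11.15.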

Additional observations from a re-analysis of the deposited data

Results flagged for a closer look

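The 2 PCGF6-KO clones differed from each other in 3 of the regulators and in PCGF6, by edgeR's quasi-likelihood test of clone 2 against clone 1. Of all tested genes, 3.73% were called higher in clone 2 and 4.14% lower. On the log2 scale, clone 2 minus clone 1 was 1.10 for FOXA2, 0.74 for CXCR4 and 0.74 for PRDM1. PCGF6, the targeted gene, was higher by 0.90 in clone 2. Both libraries of clone 2 were above both libraries of clone 1 for these 4 genes. The difference in FOXA2 was not called with DESeq2 (adjusted p = 0.265), nor without clone 1 replicate 1 (adjusted p = 0.23) or clone 2 replicate 2 (adjusted p = 0.228). Single outlying libraries were searched for over the 4 PCGF6-KO libraries, which pool the clones. The gap of an extreme library to its neighbor was set against the full range (Dixon's ratio), and none was flagged for the regulators or PCGF6. The groups of 2 libraries were too small for such a search.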

How the results depend on the processing

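CXCR4, PRDM1 and SOX17 kept their direction and their side of the threshold in all 4 comparisons under every alternative that gave a value. A filter that required 10 counts in each library removed SOX17, PRDM1, FOXA2, HNF4A and HHEX, so it gave no value for them. With the p threshold alone, 6556 genes were called in PCGF6-KO against WT (4167 with the fold threshold), 8002 in clone 1 (4379), 8904 in clone 2 (5197) and 3442 between the clones (1390), and FOXA3 was then called in clone 1. DESeq2 called 804 genes between the clones. Leaving out each library in turn gave 3019 to 4270 called genes in PCGF6-KO against WT, 4008 to 4381 in clone 1, 4849 to 5229 in clone 2 and 1137 to 1390 between the clones. HHEX, with 8 to 19 counts per library, changed sign in each comparison, with ranges over left-out libraries of −0.018 to 0.59 in PCGF6-KO, −0.46 to 0.70 in clone 1, −0.013 to 0.60 in clone 2 and −0.44 to 0.72 between the clones, and −0.0067 between the clones under upper-quartile normalization, and the cause was not tested. FOXA3 in clone 1 was also called under upper-quartile normalization (−0.61).

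The replicate number as a block called 3876 genes in PCGF6-KO against WT, 4420 in clone 1, 5233 in clone 2 and 1484 between the clones, and it changed no call of a regulator or of PCGF6 (adjusted p in PCGF6-KO against WT of 0.000677 for CXCR4, 0.0410 for FOXA2 and 0.0408 for HNF4A). Deviations of same-numbered libraries had Pearson correlations of 0.0402, 0.0542 and 0.154 and Spearman correlations of 0.112, 0.109 and 0.225 over 15413 genes. With only 2 numbers and no label that ties them to a shared culture, they were not taken as pairs. With 2 libraries per group, leaving 1 out assumed that the remaining library varied like the other groups. With library totals in place of TMM, CXCR4 in clone 2 was 16.9 CPM and PRDM1 13.9 CPM. FOXA1, FOXA2, HNF4A and HHEX rested on few counts, which limited what could be told about them.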
